A study of Mus musculus with 6 samples.

Results

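The genes described here are the chemoreceptor genes with reads in mouse microglia, the resident macrophages of the brain. They were chosen by their summed counts: a row of the deposited table counted as a member if its symbol began with Olfr, Vmn1r, Vmn2r, Taar, Tas1r or Tas2r and it held at least 50 counts over the 6 libraries. Of 38207 rows, 1575 belonged to these families and 50 met the rule. The members were 30 Olfr, 9 Vmn1r and 11 Vmn2r genes. The data came from nanopore cDNA libraries of microglia from brains of wild-type (WT) mice, with 3 libraries from sham-operated animals and 3 from animals given tMCAO. The abbreviation usually stands for transient occlusion of the middle cerebral artery, which models ischemic stroke. Each library pooled 30 mice. The sources used here state neither the animals' age, nor the interval from surgery, nor the isolation method.

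Chemoreceptors are membrane receptors that couple to G proteins. Olfr genes encode odorant receptors, of which an olfactory sensory neuron expresses mainly a single one, while Vmn1r and Vmn2r genes encode the pheromone receptors of the vomeronasal organ, Taar genes encode trace amine receptors of the nose, and Tas1r and Tas2r genes encode taste receptors. Olfr110 and Olfr111 have been described in mouse microglia, Olfr2 in mouse macrophages, and Olfr78 and Olfr558 in blood vessels.

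Library totals ranged from 1855495 to 2614512 counts, at which 1 count was 0.382 to 0.539 CPM (counts scaled to a common library total). Group levels are given in CPM with their SD (n = 3 libraries). A negative log2 fold change means a lower level after tMCAO, and its error is the standard error (SE) of the fit. The 10 microglial markers examined were all counted, and their summed level was 34125 ± 256 CPM in sham and 34068 ± 1668 CPM in tMCAO, while 2 of the 10, P2ry12 and Siglech, fell. In these bulk libraries fewer cells of a type and less RNA per cell cannot be told apart. Which pools were handled together is unlabelled, and p-values therefore reflect only how much these pools vary.

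Reads of the chemoreceptor families were concentrated in few genes. No count was recorded for 905 of the 1575 rows, 519 held 1 to 9 counts and 101 held 10 to 49. At least 1 count was found for 504 of 1191 Olfr, 86 of 206 Vmn1r, 77 of 125 Vmn2r and 3 of 35 Tas2r rows, and for none of the 15 Taar and 3 Tas1r rows. The 50 members held 15831 of the 19383 counts of the families (81.7%). Vmn2r53 alone held 20.7% of the member counts, the first 3 genes held 41.6% and the first 10 held 71.2%, while the median member held 103 counts. Just inside the threshold were Olfr1250 with 50 counts, Olfr1277 and Vmn2r99 with 51 each, and Olfr731 with 55. Just outside it were Olfr624 with 49, Olfr1489 with 48, Olfr173 and Vmn2r24 with 47 each, and Vmn1r229 and Vmn2r20 with 45 each.

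The summed level of the 50 members was lower after tMCAO. It was 2079, 1631 and 1258 CPM in sham libraries 1 to 3 and 585, 719 and 520 CPM in tMCAO libraries 1 to 3. Every tMCAO library lay below every sham library, and sham 1 was the highest. The means were 1656 ± 411 CPM in sham and 608 ± 102 CPM in tMCAO, a 2.72-fold difference (two-sided exact permutation test over 6 libraries, p = 0.1, the smallest p that 3 against 3 libraries allow). Without the 3 most counted genes the difference was 2.99-fold. The members were chosen on these same counts. Of them, 32 reached 50 counts in the sham libraries and not in the tMCAO libraries, and 12 reached it in each group. The fold, the order of the libraries and the p-value therefore describe the chosen rows. All 1575 chemoreceptor rows, taken without a threshold, differed 2.80-fold.

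Each receptor family showed the same order of groups. The Olfr members summed to 849 ± 167 CPM in sham and 328 ± 58.5 CPM in tMCAO. The Vmn1r members summed to 177 ± 42.4 and 71.0 ± 11.1 CPM, and the Vmn2r members to 630 ± 202 and 209 ± 32.5 CPM. In none of the 3 families did the groups overlap, and the same choice of rows bears on these sums. The 1525 chemoreceptor rows under the threshold summed to 496, 393 and 262 CPM in sham and 128, 139 and 98.0 CPM in tMCAO, a 3.16-fold difference with no overlap (exact permutation test, p = 0.1). The number of chemoreceptor rows with any count was 444, 393 and 340 in the sham libraries and 183, 192 and 165 in the tMCAO libraries, whose totals were smaller.

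**Figure D1:**
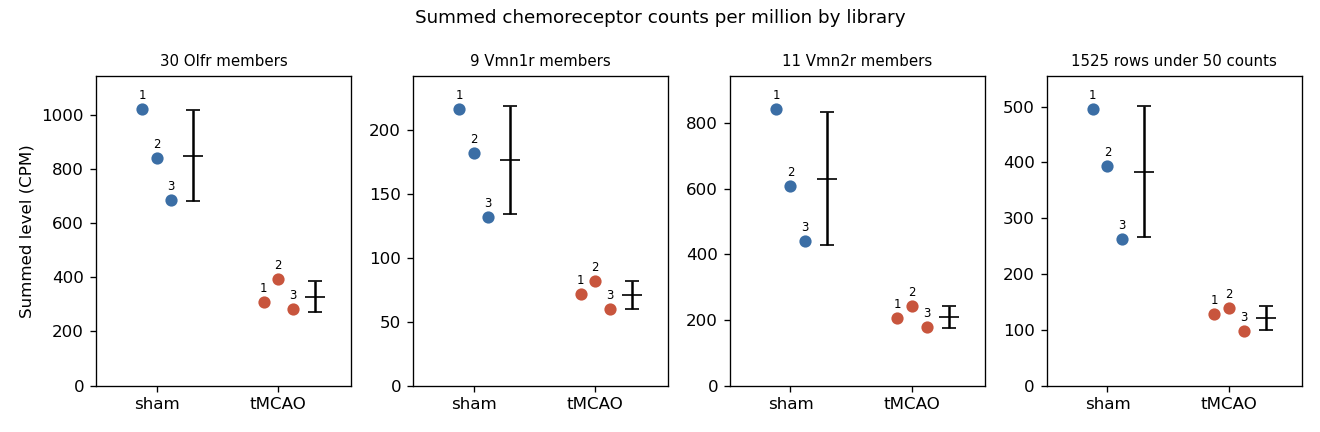
Summed level in CPM of the members of each receptor family and of the chemoreceptor rows under 50 counts, in sham and tMCAO libraries. Points are libraries with their replicate numbers and bars are mean ± SD of 3 libraries; in every panel all tMCAO libraries lie below all sham libraries, and sham 1 is the highest.

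The sham libraries differed among themselves. Of the 50 members, 32 were highest in sham 1 among the sham libraries and 38 were lowest in sham 3, and among the tMCAO libraries 31 were highest in tMCAO 2. Over all 14158 genes and loci with at least 50 counts, sham 1 was the highest sham library for 36.7%. Of these 14158, sham 3 was the lowest sham library for 3987, and tMCAO 2 was the highest tMCAO library for 4895. Without sham 1 the summed level in tMCAO was 0.421 of that in sham, against 0.367 with all libraries.

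Markers of other cell types also differed between the groups. The summed level of 7 astrocyte markers ranged from 138 to 411 CPM in sham and from 63.5 to 88.4 CPM in tMCAO, and of the 4 tested Aldoc and Slc1a2 fell. The 5 erythroid markers ranged from 955 to 6040 CPM and from 215 to 380 CPM, and of 4 tested Alas2 fell. The 5 choroid plexus markers ranged from 8600 to 44482 CPM and from 2266 to 9931 CPM, with overlap, and Clic6 fell. The 6 oligodendrocyte markers ranged from 186 to 1029 CPM and from 140 to 339 CPM, with overlap, and Mobp fell. Among the sham libraries these lists were highest in sham 2 and lowest in sham 3. The summed members were highest in sham 1 and also lowest in sham 3. The 8 neuronal markers stayed under 50 counts each, with Gad2 at 0, and summed to 8.72 to 14.8 CPM in sham and 4.79 to 8.08 CPM in tMCAO. The 3 monocyte markers ranged from 19.0 to 20.7 CPM and from 36.6 to 63.0 CPM, and Ccr2 and Plac8 rose. The 3 neutrophil markers ranged from 1336 to 1747 CPM and from 302 to 1308 CPM, and Retnlg fell. The 13 genes of the mitochondrial genome summed to 24901 ± 7929 CPM in sham and 9186 ± 1060 CPM in tMCAO. The part of these differences in the receptor result was not tested.

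Gene by gene, 34 of the 50 members were lower after tMCAO and 0 were higher (edgeR quasi-likelihood test, Benjamini-Hochberg adjusted p under 0.05 over 14158 genes and loci). Over all genes and loci tested, 8.25% were lower and 8.48% higher by the same rule, and among known genes 5.33% were lower. Among loci outside the annotation 13.2% were lower. At an unadjusted p under 0.05, 45 members were lower and 0 higher, and 16.5% of all genes and loci were lower. The median log2 fold change was -1.77 over the members and 0.00 over all genes and loci. By family, 22 of 30 Olfr, 5 of 9 Vmn1r and 7 of 11 Vmn2r members were lower. All tMCAO libraries lay below all sham libraries for 35 members, against 14.8% of all genes and loci, and above them for 0 members, against 22.1%. The threshold bears on these counts: 32 members reached 50 counts in the sham libraries and not in the tMCAO libraries, 12 reached it in each group, 6 in neither, and 0 in tMCAO alone. The counts therefore describe the chosen rows and support nothing beyond them.

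**Figure D2:**
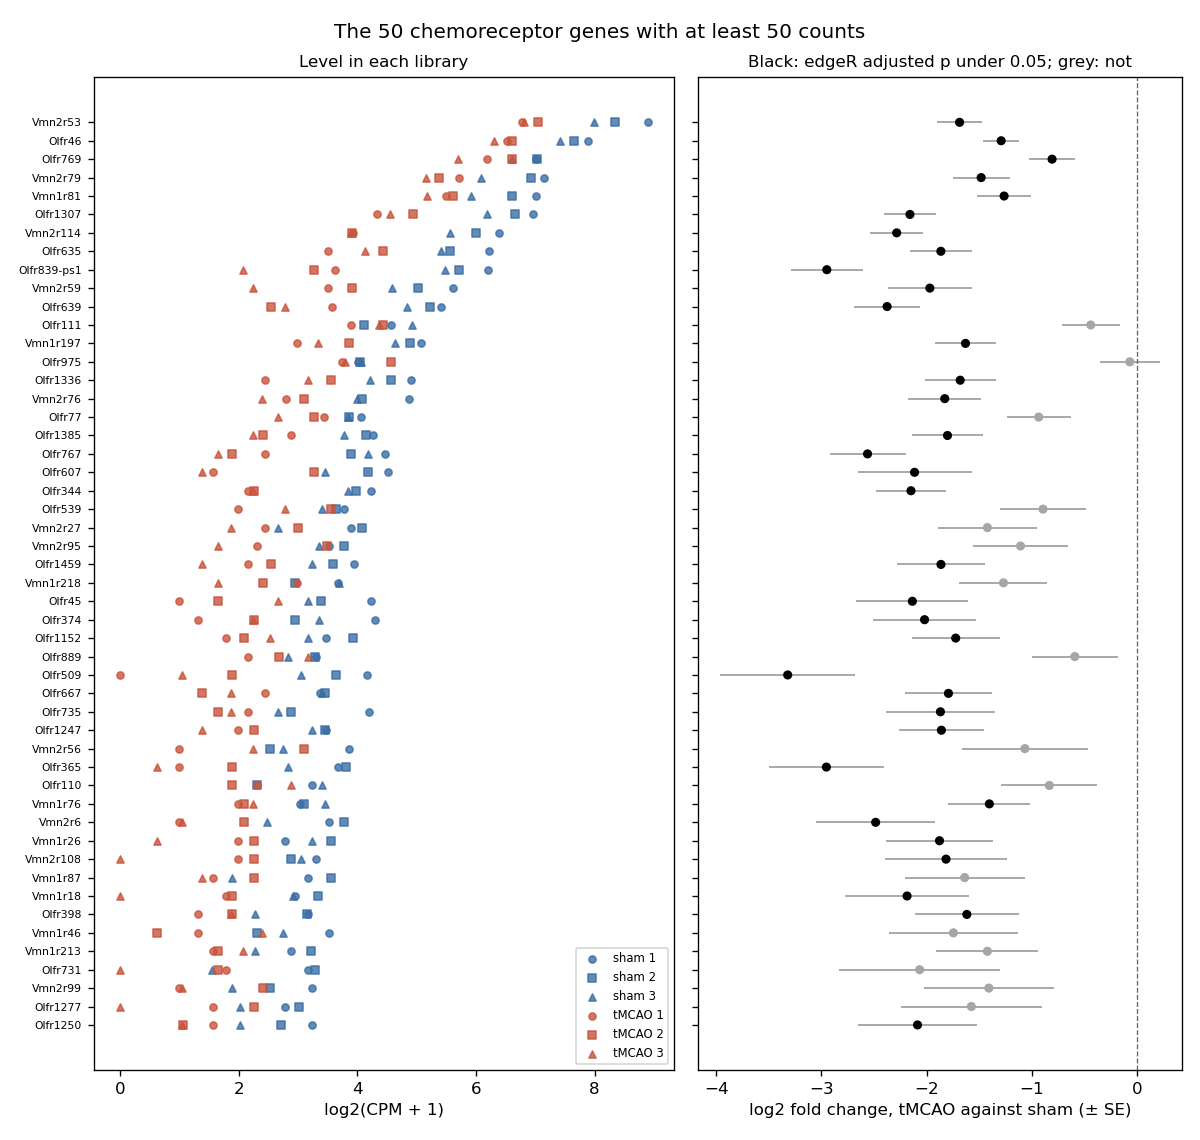
Left, level of each of the 50 members in each library as log2(CPM + 1), sham in blue and tMCAO in red, ordered by mean level; right, log2 fold change ± SE from edgeR, black where the adjusted p was under 0.05. The fold changes run from -3.32 for Olfr509 to -0.07 for Olfr975, and the 16 grey genes did not pass the test.

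Vmn2r53, a vomeronasal receptor gene, had the most counts of all members. Its level was 476, 322 and 254 CPM in sham and 108, 131 and 111 CPM in tMCAO. The tMCAO libraries were close to each other and all below sham. Its log2 fold change was -1.69 ± 0.22 (edgeR adjusted p = 0.000309). Vmn2r79 stood at 140, 120.1 and 66.6 CPM in sham and 51.2, 40.4 and 34.6 CPM in tMCAO (-1.48 ± 0.27, edgeR adjusted p = 0.00402). Its groups did not overlap, with sham 3 nearest to tMCAO. Vmn2r114 stood at 83.1, 62.6 and 46.3 CPM in sham and 14.3, 14.0 and 13.8 CPM in tMCAO. It had the smallest adjusted p of the members (-2.29 ± 0.25, edgeR adjusted p = 7.9e-05). Vmn2r59 (-1.97 ± 0.40), Vmn2r76 (-1.83 ± 0.35) and Vmn2r6 (-2.49 ± 0.56) also fell. Vmn2r6 had an adjusted p of 0.0839 with limma voom and 0.0702 without both sham 1 and tMCAO 3.

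Olfr46 was the most counted odorant receptor gene. Its level was 234, 201 and 169 CPM in sham and 91.1, 96.5 and 78.3 CPM in tMCAO (-1.29 ± 0.17, edgeR adjusted p = 0.000328). The 3 tMCAO values were all below the lowest sham value. Olfr769 was next, with 127, 129 and 96.4 CPM in sham and 71.4, 96.5 and 50.6 CPM in tMCAO (-0.81 ± 0.22, edgeR adjusted p = 0.0228). Its groups met, since tMCAO 2 and sham 3 had almost the same level, and its adjusted p was 0.0922 without sham 1, 0.0741 without sham 2, 0.0684 without tMCAO 1 and 0.0535 without tMCAO 3. Olfr1307 stood at 124, 100.3 and 71.9 CPM in sham and 19.2, 29.6 and 22.4 CPM in tMCAO (-2.16 ± 0.24, edgeR adjusted p = 0.000101). Here the groups were far apart.

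Several other odorant receptor genes fell. Olfr509 stood at 16.9, 11.5 and 7.27 CPM in sham and at 0, 2.69 and 1.07 CPM in tMCAO, the largest fall among the members (-3.32 ± 0.64, edgeR adjusted p = 0.00459). It had no count in tMCAO 1, and its adjusted p was 0.0511 with limma voom, the highest over the 16 alternatives. Olfr839-ps1 stood at 72.5, 51.5 and 43.6 CPM in sham and 11.3, 8.62 and 3.20 CPM in tMCAO (-2.95 ± 0.34). The level of Olfr365 was 11.8, 13.1 and 6.12 CPM in sham and 0.985, 2.69 and 0.533 CPM in tMCAO (-2.95 ± 0.55). Neither gene's groups overlapped. Olfr767 (-2.56 ± 0.36), Olfr639 (-2.38 ± 0.31), Olfr344 (-2.15 ± 0.33) and Olfr635 (-1.87 ± 0.29) fell as well. So did Olfr1247 (-1.86 ± 0.40), Olfr1385 (-1.80 ± 0.34), Olfr667 (-1.79 ± 0.41) and Olfr1336 (-1.68 ± 0.34). Olfr1247 had an edgeR adjusted p of 0.0566 without both sham 1 and tMCAO 3.

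Of the vomeronasal type 1 genes, Vmn1r81 had the most counts. It stood at 127, 96.3 and 59.3 CPM in sham and 43.8, 48.0 and 35.1 CPM in tMCAO (-1.26 ± 0.26, edgeR adjusted p = 0.00647). Sham 3 was the closest to the tMCAO libraries, which it still exceeded. Vmn1r197 stood at 32.5, 28.5 and 23.7 CPM in sham and 6.89, 13.5 and 9.05 CPM in tMCAO (-1.63 ± 0.29, edgeR adjusted p = 0.00209).

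Some calls were lost when a library was left out, while the fold changes kept their sign. Olfr1459 (-1.86 ± 0.42) had an edgeR adjusted p of 0.00894, and 0.0522 without sham 1, and its log2 fold change lay between -2.21 and -1.57 with 1 library left out. Olfr374 (-2.02 ± 0.49) went from 0.0136 to 0.0849 without sham 1, with log2 fold changes of -2.27 to -1.52. Olfr45 (-2.14 ± 0.53) went from 0.0169 to 0.0851 without sham 1 and to 0.0836 without tMCAO 2, with a log2 fold change of -1.74 and -1.97. Olfr1152 (-1.72 ± 0.42) went from 0.0136 to 0.051 without sham 2 and 0.0543 without tMCAO 2, with log2 fold changes of -2.05 to -1.43. The other called members were Vmn1r18, Olfr1250, Vmn1r26, Olfr607, Vmn1r76, Olfr735, Olfr398 and Vmn2r108. Their adjusted p-values lay between 0.0221 and 0.0495, and with 1 library left out their log2 fold changes lay between -3.23 and -1.18. Each lost its call for at least 1 library left out, Olfr398 for 5 of the 6 and Vmn2r108 for all 6. Of the 34 called members, 21 kept the call whichever library was left out.

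Olfr110 and Olfr111, the receptors described in mouse microglia, did not pass the test. Olfr111 stood at 22.8, 16.3 and 29.5 CPM in sham and 13.8, 20.5 and 19.7 CPM in tMCAO (-0.44 ± 0.28, edgeR adjusted p = 0.294). Olfr110 stood at 8.43, 3.96 and 9.56 CPM in sham and 3.94, 2.69 and 6.39 CPM in tMCAO (-0.83 ± 0.46, edgeR adjusted p = 0.228). For both genes the groups overlapped and sham 3 was the highest library, whereas sham 3 was the lowest sham library for most members. Together they held 1.95 ± 1.01% of the member counts in sham and 3.76 ± 1.10% in tMCAO (exact permutation test, p = 0.2). Olfr2 held 1 count in all, Olfr558 held 4 and Olfr78 held 0.

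Olfr975, an odorant receptor gene singled out after its values were seen, had the smallest difference. It stood at 15.2, 15.5 and 15.7 CPM in sham and 12.3, 22.6 and 12.8 CPM in tMCAO (-0.07 ± 0.29, edgeR adjusted p = 0.90). The sham libraries lay within the range of the tMCAO libraries, and it is the only member whose fitted value turned positive under any alternative. Of the members just inside the threshold, Olfr1250 fell (-2.09 ± 0.57), while Olfr731 (-2.07 ± 0.76), Olfr1277 (-1.58 ± 0.67) and Vmn2r99 (-1.41 ± 0.62) did not pass the test.

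The genes through which chemosensory neurons signal were mostly near 0. Of 36 genes listed for olfactory, vomeronasal and taste signalling and for receptor choice, 8 had at least 50 counts and none was called in either direction (edgeR, 4 at an unadjusted p under 0.05). In the olfactory list of 17 genes, Omp, the marker protein of mature olfactory neurons, the channel subunit gene Cnga4, the receptor transport genes Rtp1 and Rtp2, Stoml3 and the chloride channel gene Ano2 were at 0. Gnal, the olfactory G protein subunit, had 14 counts, the adenylyl cyclase gene Adcy3 had 6 and the channel gene Cnga2 had 2. Trpc2, the vomeronasal channel, was at 0. The 9 olfactory neuron markers summed to 0.396 to 1.69 CPM in sham and 0.985 to 4.31 CPM in tMCAO, and the 3 vomeronasal neuron markers to 2.29 to 5.06 and 0.985 to 2.66 CPM. The tested genes are used in other cells too: Gnb1, a G protein beta subunit, had a log2 fold change of -0.74 ± 0.26 (edgeR adjusted p = 0.072), and B2m, the light chain of MHC class I, of 0.35 ± 0.13 (edgeR adjusted p = 0.0796).

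The annotated models of the members were long and mostly noncoding. The models were taken from GENCODE M21, which held 1568 of the 1575 rows and all members, and which may not be the annotation the counts were made with. The median exonic length was 6737 bases for members and 2918 bases for the other chemoreceptor rows, and the coding part took a median of 16.7% and 34.0%. Of 464 rows shorter than 2000 bases 1 was a member, and of 185 rows of 6000 bases or more 29 were. Per kilobase of exon the order of the genes changed: Olfr769 had 300.3 counts, Olfr46 258, Vmn2r53 147.9 and Olfr111 104. Whether counts of nanopore reads scale with annotated length was not tested, so this order is a description.

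**Figure D3:**
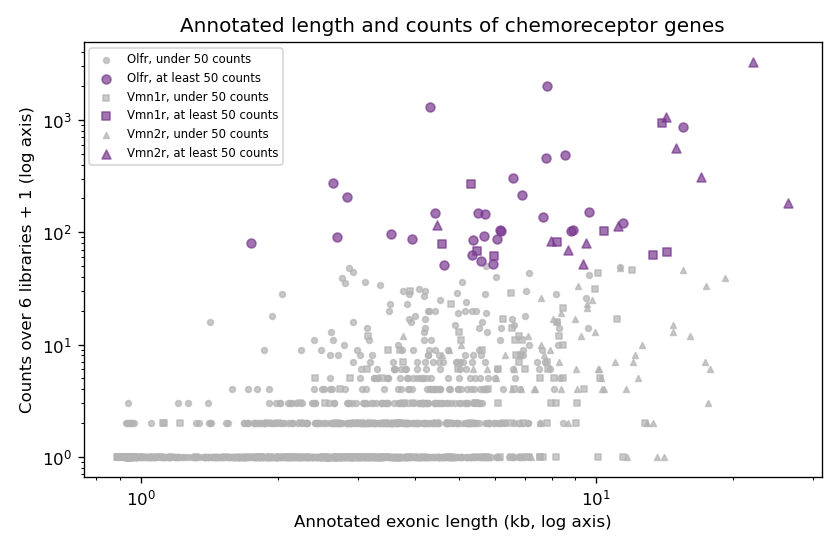
Annotated exonic length in kilobases against counts over 6 libraries plus 1, both on log axes, for Olfr, Vmn1r and Vmn2r rows; purple marks the 50 members and grey the rows under 50 counts. Members lie toward the right, with a median exonic length of 6737 bases against 2918 for the other chemoreceptor rows.

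The transcripts of the members also held sequence found in many other genes. The longest transcript of each gene was compared with the transcripts of all other genes, counting matches of at least 100 bases at 90% identity or more. A median of 204 other genes matched a member, against 2 for the other chemoreceptor rows, and 34 of 50 members matched at least 100 genes, against 167 of 1518 rows. The members were also longer, and whether the difference in matches goes beyond length was not tested. The median part of the transcript that matched was higher in members for Olfr (33.8% against 21.8%). It was lower in members for Vmn1r (33.9% against 56.4%) and Vmn2r (48.2% against 70.5%). Of the 34 members matching at least 100 genes 28 were lower (median log2 fold change -1.87), and of the other 16 members 6 were lower (median -1.50), beside 8.25% of all genes and loci. The limit of 100 genes was chosen after values were seen, and the difference was not tested. Olfr667, which matched only 1 gene, was among the lower members (-1.79 ± 0.41, edgeR adjusted p = 0.0102). Olfr110 and Olfr111 each matched 1 gene, which was the other of the pair (1257 bases, 95.6% identity), so counts assigned to either are uncertain. The same holds for the members whose matches are close paralogs, such as Vmn2r6, which matched Vmn2r7 over 8921 bases at 97.8% identity. How reads were assigned, and whether strand was used, is not stated, and 8 members overlap another annotated gene.

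**Figure D4:**
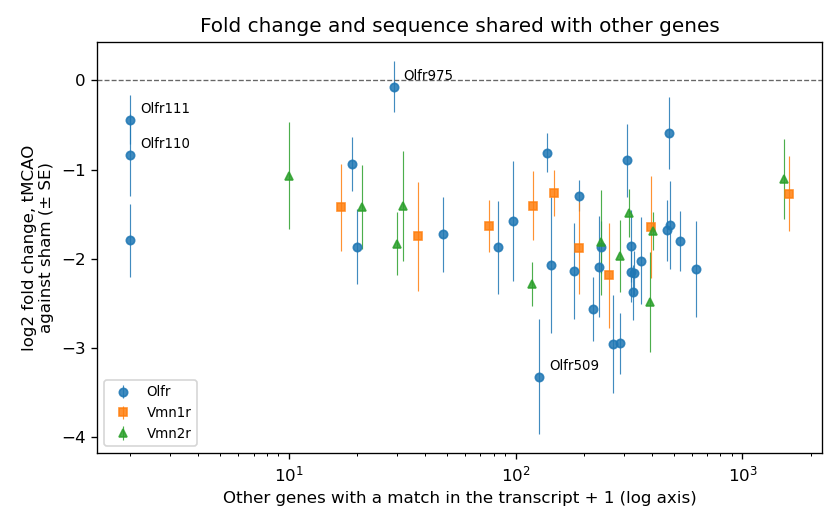
Log2 fold change ± SE of each member against the number of other genes with a match in its longest transcript plus 1, on a log axis, by family. Olfr110, Olfr111 and Olfr667, at the left, have 1 such gene each and values of -0.83, -0.44 and -1.79, while 34 members have at least 100.

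To show what was shared, 3 stretches of 30 bases that recur among the members are printed as they stand in GENCODE M21 transcripts, 5′ to 3′. A gene counted as a holder if a transcript of it held the stretch or its reverse complement. Capitals mark bases identical in every holder on 1 strand or the other, here the whole stretch.
Stretch 1: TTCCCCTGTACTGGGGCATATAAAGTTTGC
Stretch 2: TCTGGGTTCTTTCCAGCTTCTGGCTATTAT
Stretch 3: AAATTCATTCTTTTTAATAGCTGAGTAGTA

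Stretch 1 was held by 17 members, among them Olfr769, Olfr639 and Vmn2r79, by 31 of 1518 other chemoreceptor rows and by 136 of 55450 annotated genes (0.245%). Stretch 2 was held by 15 members, among them Vmn2r53 and Olfr839-ps1, and by 89 genes (0.161%). Stretch 3 was held by 12 members, among them Olfr1307 and Olfr509, and by 88 genes (0.159%). Stretches were picked because members share them, so these shares are a description.

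Genes outside the chemoreceptor families that share at least 1000 bases with a member were looked at next. Of 10 such genes tested, 5 were lower and 0 higher, beside 8.25% lower and 8.48% higher over all genes and loci, and whether they differ from other genes was not tested. D10Wsu102e, which matched 11 members and Vmn2r53 over 4538 bases at 92.1% identity, stood at 1013, 816 and 610 CPM in sham and 334, 372 and 276 CPM in tMCAO (-1.42 ± 0.19, edgeR adjusted p = 0.000303). Its groups did not overlap and sham 1 was the highest. The predicted genes Gm21962 (-2.75 ± 0.46), Gm21750 (-2.12 ± 0.32), Gm21833 (-1.92 ± 0.47) and Gm21897 (-1.40 ± 0.30) also fell. Gm21750, Gm21833 and Gm21897 had their longest match in the same member, Vmn2r53 (1485, 1488 and 1486 bases). Whether their counts are separate is not known. Fgd4, which matched 13 members, had a log2 fold change of -0.10 ± 0.19 and Acad9, which matched 9, of -0.13 ± 0.37, and neither passed the test. Fech, which matched 14 members, had a positive log2 fold change of 0.535 ± 0.412 and did not pass the test. Cd84 and Lipo3 did not pass it either.

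The neighbours of the members in the genome mostly had few counts, as did most chemoreceptor rows. The nearest other chemoreceptor gene was at 0 counts for 24 members and under 10 counts for 42. Among all 1575 chemoreceptor rows, 905 were at 0 and 519 held 1 to 9 counts. Whether the neighbours differ from other rows was not tested.

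Promoters were in the RefSeq table (GRCm38.p6, 250 bases before to 50 after the start) for 44 members. They are shown for Olfr110 and Olfr111, the pair described in microglia, and for Olfr46, the most counted odorant receptor gene. Capitals mark GAGGAAGT, which holds the core of the motif bound by PU.1, a factor of macrophages and microglia, searched on both strands together with TAATTA and TATAAA. The Olfr110 promoter is chr17:37492218-37492517 (+), that of Olfr111 chr17:37529707-37530006 (+) and that of Olfr46 chr7:140601090-140601389 (+).
Olfr110: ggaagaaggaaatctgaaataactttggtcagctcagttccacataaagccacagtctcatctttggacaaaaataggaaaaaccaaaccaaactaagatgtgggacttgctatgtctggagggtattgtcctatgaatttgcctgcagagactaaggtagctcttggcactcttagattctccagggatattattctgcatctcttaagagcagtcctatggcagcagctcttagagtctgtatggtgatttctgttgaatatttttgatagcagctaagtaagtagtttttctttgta
Olfr111: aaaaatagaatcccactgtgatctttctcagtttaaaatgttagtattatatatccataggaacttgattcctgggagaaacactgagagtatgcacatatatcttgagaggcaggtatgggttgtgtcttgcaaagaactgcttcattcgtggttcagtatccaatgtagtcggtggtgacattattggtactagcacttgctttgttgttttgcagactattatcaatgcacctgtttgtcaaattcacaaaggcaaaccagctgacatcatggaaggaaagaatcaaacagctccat
Olfr46: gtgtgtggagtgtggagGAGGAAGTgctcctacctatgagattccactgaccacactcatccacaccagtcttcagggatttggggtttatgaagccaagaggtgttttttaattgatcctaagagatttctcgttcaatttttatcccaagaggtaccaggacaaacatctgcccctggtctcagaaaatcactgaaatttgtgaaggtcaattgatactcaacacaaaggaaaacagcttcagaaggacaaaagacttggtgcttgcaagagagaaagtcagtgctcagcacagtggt

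GAGGAAGT was found in 1 of 44 member promoters, that of Olfr46, in 5.34% of 1236 promoters of other chemoreceptor genes and in 3.2% of all 32851 promoters. TAATTA, a homeodomain motif, was found in 9 of 44 member promoters (20.5%), in 16.7% of those of other chemoreceptor genes and in 5.29% of all. TATAAA, the TATA box, was found in 16 of 44 (36.4%), 39.7% and 13.6%. A match is a description of these windows and does not show a bound site.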

How the data were processed

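The deposited table holds read counts per gene and library and columns headed CPM. Deposited CPM differed from counts scaled here by library totals by at most 4.87e-06. Reads were aligned with minimap2, per the submitters' processing notes, and the sources used here give no genome build, annotation or counting rule. Of 38219 lines, 12 held spilled annotation text and no values and were left out.

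Counts were tested with edgeR 4.0.16 (R 4.3.3, TMM scaling, glmQLFit and glmQLFTest, group as the only term) on the 14158 genes and loci with at least 50 counts over the 6 libraries, with Benjamini-Hochberg adjustment over all of them and calls at an adjusted p under 0.05. The biological coefficient of variation was 23%. DESeq2 1.42.0 and limma 3.58.1 (voom) were alternatives, with other scalings and filters, left-out libraries and the replicate number as a block. The code was tested on simulated data. Values per library were compared by the two-sided exact permutation test. Chi-square per degree of freedom between replicates was 4.64 to 9.02, so no library was counted as a repeat of another. The reads came from amplified cDNA without molecular identifiers, which means that a count is a read and not an independent molecule. Transcripts were compared with blastn 2.17.0.

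Named genes are the called members (values for the 25 with the smallest p, a range for the rest), the 10 with the highest mean CPM, the most counted of each family, those near the threshold, and Olfr110, Olfr111, Olfr2, Olfr78 and Olfr558. The members and lists were chosen with earlier results of these data known. The comparisons of gene models, shared sequence and promoters were chosen after values were seen.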

Additional observations from a re-analysis of the deposited data

How the results depend on the processing

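The count of 34 lower members was 22 to 39 over 16 alternatives (22 without both sham 1 and tMCAO 3, 24 with limma voom, 30 with DESeq2, 39 without a filter), and 23 to 35 when 1 library was left out. With the replicate block it was 32. Whether the replicate numbers pair the samples is unlabelled, and correlations among so few libraries cannot settle it. Deviations of same-numbered libraries correlated at -0.185, 0.0134 and -0.16, and those of sham 1 and tMCAO 3 at 0.226. No member was higher under any alternative. The members' median log2 fold change of -1.77 became -1.52 without both libraries and lay between -1.95 and -1.53 with 1 left out. The ratio of summed member CPM, 0.367, lay between 0.328 and 0.421 with 1 library left out, and was 0.371 with the replicate block (exact sign-flip p = 0.25, the smallest possible). Of the 34 called members, 18 were called in every alternative that gave an adjusted p. The 2368 genes and loci changed became 4039 without a filter, 1453 with Ensembl IDs only and 1516 without both libraries, and 1190 to 2379 with 1 left out. Calls split into 1168 lower and 1200 higher, 874 and 1473 with library totals only (median log2 fold change of all genes 0.11) and 1574 and 989 with upper-quartile scaling (-0.10). The signalling list's 0 calls became 1 with library totals only (B2m, higher), 1 with upper-quartile scaling and 1 with the replicate block (Gnb1, lower), 2 without a filter (both genes), and 0 to 1 with 1 library left out; these alternatives for the list were chosen after seeing the data. The causes were not tested. Of the members with 50 to 99 counts 12 of 21 were called, with at least 500 counts 7 of 7, and of those between 15 of 22, beside 8.25% of all genes and loci lower.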
